A study of Mus musculus with 17 samples.

Results

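Zbtb40, Gm7120, Actn2 and Map3k13 are 4 of the 24498 gene symbols counted by RNA-seq in the dorsal hippocampus of wild-type mice (WT) and of mice with a constitutive knockout of Acss2 (KO). Each had the smallest unadjusted p, apart from Acss2 itself, in a comparison of male mice. Zbtb40 led the comparison of KO with WT averaged over treatment, Gm7120 that of KO Tau with WT Tau, Actn2 that of KO Tau with KO PBS, and Map3k13 that of Tau with PBS averaged over genotype. The genes were thus chosen by these p values, and their values in these comparisons are given as a description, without a test. All 4 genes passed the filter on low counts that left 15098 genes in the male libraries and 15419 in the Tau libraries of both sexes.

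The mice were injected in the dorsal hippocampus at 6 months of age, with tau purified from Alzheimer's disease brain (Tau) or with phosphate-buffered saline (PBS), and were studied 6 months later. Poly(A) RNA gave 17 libraries in 6 groups. Male mice supplied 12 of them, 3 for each of WT PBS, WT Tau, KO PBS and KO Tau. Female mice supplied 3 for KO Tau and 2 for WT Tau, and none after PBS. Male libraries are numbered 711 to 793 and female ones 314 to 341. Any difference between male and female libraries therefore cannot be told apart from a difference between these number series. KO and WT mice came from separate homozygous crosses of F1 progeny of heterozygous cages, the knockout is present in all cells from development on, and the libraries were described as biological replicates. The study set out to examine how loss of ACSS2, the enzyme that turns acetate into acetyl-CoA, interacts with pathological tau.

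The genes have different known roles. Zbtb40 encodes a zinc finger protein of the BTB family, most of whose members bind DNA and control transcription. Gm7120 is an older symbol of Tmem267, which encodes a predicted membrane protein of little known function. Actn2 encodes alpha-actinin-2, which cross-links actin filaments, anchors them at the Z-disc of striated muscle and, in neurons, sits in dendritic spines where it binds NMDA receptor subunits and CaMKII. Map3k13 encodes LZK, a kinase that together with its close relative DLK (Map3k12) starts a cascade through MKK4 and MKK7 to JNK, a pathway known for its part in the response of neurons to axon injury.

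Positions were read from the GENCODE M21 annotation of GRCm38, the assembly to which the reads had been aligned. Zbtb40 lies at chr4:136979732-137048801 on the minus strand with 10710 exonic bases, and Map3k13 at chr16:21794346-21933439 on the plus strand with 8714. Actn2 and Gm7120 are both on chromosome 13. The first lies at chr13:12269426-12340760 on the minus strand with 3795 exonic bases, and the other at chr13:119488039-119611059 on the plus strand with 5419. All 4 are protein coding. The exons of Zbtb40 and Actn2 overlapped no other annotated gene. Gm7120 shared 162 exonic bases with 3110070M22Rik on the opposite strand, a gene with at most 27 counts in a library, and 181 with the noncoding gene Gm48265 on the opposite strand. Map3k13 shared 227 exonic bases with 1300002E11Rik on its own strand, which had at most 157, and 54 with the noncoding gene 2610020F03Rik on the opposite strand. Gm48265 and 2610020F03Rik are not among the symbols analysed here. The library kit does not mark the strand of origin, so reads from such shared bases could not be told apart by strand. The reads had been counted in reverse-stranded mode, in which reads of the other orientation are left out, and the part of this in the counts, CPM and RPKM was not tested.

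The libraries held 14183131 to 22463635 counts. Acss2 ranged from 3.07 to 8.81 CPM (counts scaled to a library total of 1000000) in the 9 KO libraries and from 44.0 to 54.6 CPM in the 8 WT libraries, so every genotype label was borne out. Marker genes of the dentate granule, CA1, CA2 and CA3 cells of the hippocampus were detected in all 17 libraries. A few libraries stood apart by their marker sums. In male KO Tau library 711 the 7 astrocyte markers summed to 6680 CPM, against 3426 to 4263 in the other 11 male libraries and 6996 to 7604 in the 5 female ones. Its 6 nuclear-retained RNAs summed to 6091 CPM, against 2133 to 4708 in the other male libraries and 3611 to 6017 in the female ones. Its 10 inhibitory neuron markers summed to 904 CPM, against 1189 to 1849 in the other male libraries and 721 to 914 in the female ones. In male KO PBS library 752 the 12 striatal markers summed to 837 CPM, against 189 to 314 elsewhere. In male KO Tau library 713 the 14 choroid plexus markers summed to 4143 CPM, against 28.8 to 606 elsewhere. The part of these differences in the results below was not tested except where a value without the library is given. In such bulk samples fewer cells of a type and less RNA per cell cannot be told apart.

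By mean CPM the 4 genes stood near or below the middle of the genes tested. Actn2 was at percentile 34.1, Zbtb40 at 40.0, Gm7120 at 44.3 and Map3k13 at 50.2. Per length, mean levels over the 17 libraries were 1.39 RPKM (CPM divided by exonic length in kilobases) for Zbtb40, 3.36 for Gm7120, 2.90 for Actn2 and 2.67 for Map3k13. They rested on 177 to 412, 155 to 666, 104 to 306 and 265 to 571 counts per library, respectively, so that counting error alone was 3.87% to 9.81% of a value. The spread within male groups differed between them. Map3k13 had an SD of 0.06 on the log2 CPM scale, at percentile 1.02 among all genes tested, whose median was 0.20. Zbtb40 and Actn2 had an SD of 0.11 each, at percentiles 17.1 and 18.1, and Gm7120 had 0.28, at percentile 66.7. The p that chose the genes depends on this spread, so it is no independent trait of theirs.

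**Figure D1:**
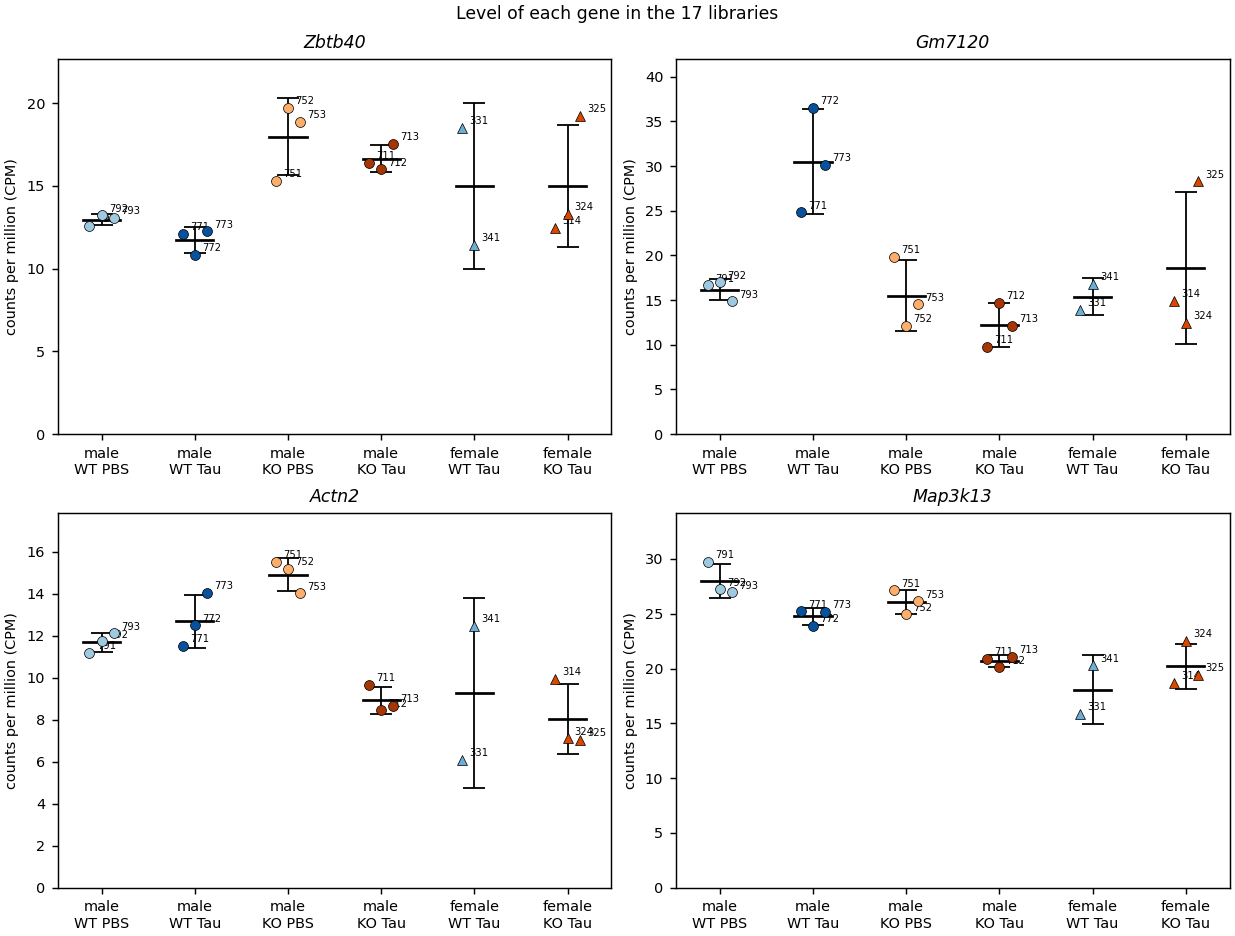
Level of Zbtb40, Gm7120, Actn2 and Map3k13 (y axis, CPM) in each of the 17 libraries by group (x axis). Circles are male and triangles female libraries with their numbers, and bars give mean and SD. The 6 male KO libraries of Zbtb40 sit at 15.3 CPM or above and the 6 male WT libraries at 13.2 CPM or below.

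Zbtb40 was higher in every male KO library than in every male WT library. In WT PBS libraries 791, 792 and 793 it stood at 12.6, 13.2 and 13.1 CPM, and in WT Tau libraries 771, 772 and 773 at 12.1, 10.8 and 12.3 CPM. In KO PBS libraries 751, 752 and 753 it reached 15.3, 19.7 and 18.9 CPM, and in KO Tau libraries 711, 712 and 713 it reached 16.4, 16.0 and 17.5 CPM. The 6 KO libraries averaged 17.3 ± 1.72 CPM (SD) and the 6 WT libraries 12.4 ± 0.86 CPM, without overlap. In this comparison the libraries of 0.397% of the genes tested did not overlap.

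The log2 fold change that chose Zbtb40 was 0.52 (SE 0.08), a 1.44-fold higher level in KO. Its unadjusted p was 2.5e-05 and its adjusted p 0.189, while the next gene in rank, Avp, which encodes the hormone vasopressin, had a log2 fold change of 1.73 (SE 0.27) and an unadjusted p of 5.14e-05. Acss2 was the only gene past an adjusted p of 0.05 here, 0.00662% of those tested. The difference had a similar size under either treatment, with 0.52 (SE 0.11) between KO PBS and WT PBS and 0.53 (SE 0.11) between KO Tau and WT Tau, which together make up that average. Other tools were run on the same libraries, which chose the 4 genes, so their values in the choosing comparisons are likewise a description and no further evidence. In limma voom Zbtb40 was the only gene called besides Acss2 (adjusted p 0.0334), which made 0.0132% of the genes called. In the DESeq2 Wald test its adjusted p was 0.000119, and 10 genes or 0.0652% were called. Striatal and choroid plexus markers were also higher in KO, 11 of 12 and 14 of 14 of them. Zbtb40 kept a log2 fold change of 0.49 without library 752, where it was highest, and of 0.50 without library 713, and the part of these markers was otherwise not tested.

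Comparisons whose log2 fold changes are independent of that choice gave no difference in Zbtb40 past the test. Their SE and p rest on a spread shared with libraries of the choice, as is true for the other genes below. The effect of genotype did not detectably depend on treatment, with an interaction of 0.01 (SE 0.15, 95% interval -0.33 to 0.34, adjusted p 0.998). Tau against PBS, averaged over genotype, gave -0.16 (SE 0.08, 95% interval -0.32 to 0.01, adjusted p 0.888). In WT mice alone the Tau libraries, at 12.3 CPM or below, did not overlap the PBS libraries, at 12.6 CPM or above, as was true of 12.2% of the genes tested, and the log2 fold change was -0.16 (SE 0.11, 95% interval -0.40 to 0.08, adjusted p 1.00). In females, whose libraries the choice did not use, Zbtb40 stood at 18.5 and 11.4 CPM in WT Tau libraries 331 and 341 and at 12.5, 13.3 and 19.2 CPM in KO Tau libraries 314, 324 and 325. The female groups overlapped, and each held a library at 18.5 CPM or above. The female log2 fold change of KO Tau against WT Tau was 0.05 (SE 0.20, adjusted p 0.997), in a comparison where Acss2 was the only gene called (0.00649% of those tested). Its 95% interval ran from -0.38 to 0.49. With a library left out the female value ran from -0.23 to 0.40, and library 341 lay below every KO Tau library. The female minus the male log2 fold change was -0.47 (SE 0.27, 95% interval -1.06 to 0.11), but it contains male libraries that chose the gene. Sex and library number series cannot be told apart in it. Library 331 also held 12029 CPM of oligodendrocyte markers, against 6052 in library 341.

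Other genes with a Zbtb symbol ran from -0.25 to 0.54 on the log2 scale in the comparison that chose Zbtb40. Of these 39 tested genes, none passed an adjusted p of 0.05 between male KO and WT, and 3, or 7.69%, had an unadjusted p under 0.05, against 4.58% of all genes tested. Zbtb7a was higher by 0.17 (SE 0.07), and Zbtb48, a telomere-binding relative, and Zbtb21 were lower, at -0.25 (SE 0.08) and -0.19 (SE 0.09) on the log2 scale. Zbtb7c, the highest, stood at 0.54 (SE 0.31, unadjusted p 0.109). The median of the 39 was -0.03 on that scale, where that of all genes was 0.00. Along chromosome 4, none of the 20 nearest tested genes, 10 on each side, had an unadjusted p under 0.05, and their log2 fold changes ran from -0.16 to 0.28.

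**Figure D2:**
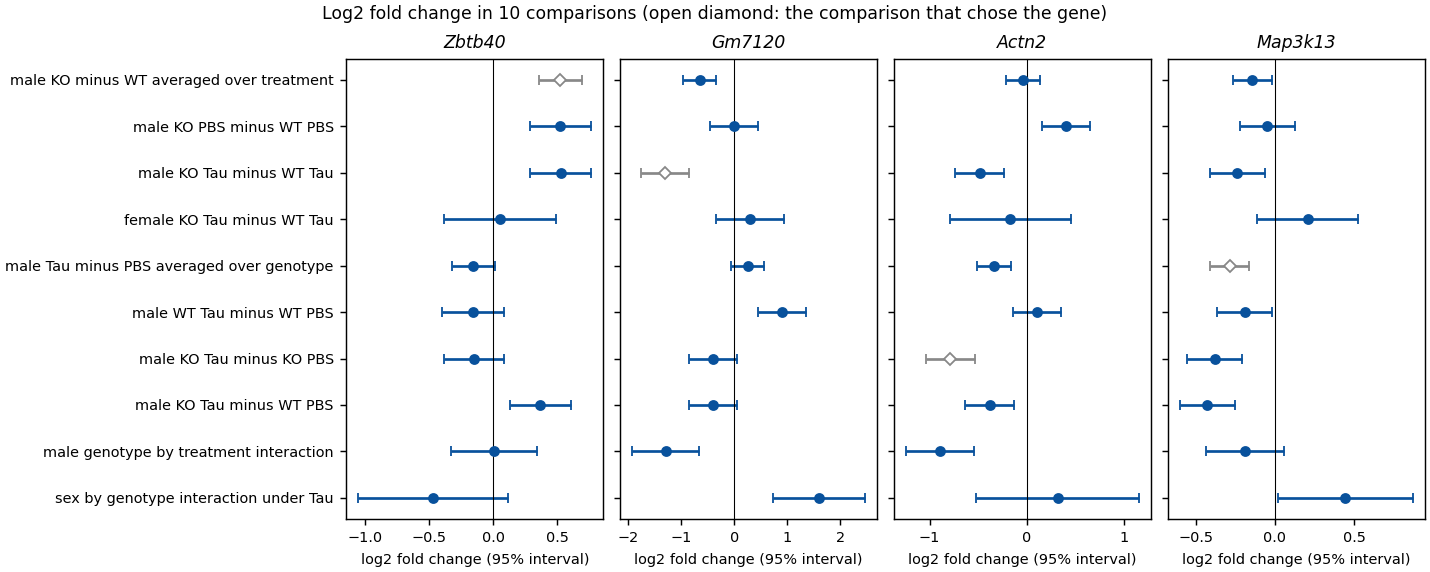
Log2 fold change with its 95% interval (x axis, own scale in each panel) of the 4 genes in 10 comparisons (y axis). The open grey diamond is the comparison that chose the gene. Zbtb40 stands near 0.5 in the male KO and WT contrasts and at 0.05 in the female one, and Gm7120 is at 0.90 in WT Tau against WT PBS and near 0 in KO PBS against WT PBS.

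Gm7120 was highest in male WT Tau mice. WT Tau libraries 771, 772 and 773 had 24.8, 36.5 and 30.2 CPM. KO Tau libraries 711, 712 and 713 had 9.78, 14.7 and 12.1 CPM. These groups averaged 30.5 ± 5.85 and 12.2 ± 2.46 CPM and did not overlap, as was true of 12.6% of the genes tested. The PBS groups lay close to the KO Tau level, with 16.7, 16.998 and 14.9 CPM in WT PBS libraries 791, 792 and 793 and 19.8, 12.2 and 14.5 CPM in KO PBS libraries 751, 752 and 753.

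The log2 fold change that chose Gm7120 was -1.30 (SE 0.21), a KO Tau level 0.406 times that of WT Tau. Its unadjusted p was 4.91e-05 and its adjusted p 0.371. The next gene in rank was Dusp5, a phosphatase of ERK kinases, at -1.15 (SE 0.20) with an unadjusted p of 9.78e-05. Acss2 was again the only gene called, 0.00662% of those tested, whereas limma voom called Gm7120 beside it (adjusted p 0.0403), 0.0132% of the genes. The DESeq2 Wald test called 4 genes or 0.02%, Acss2, Gm7120 (adjusted p 3.55e-05), Dusp5 and the kinase gene Sik1, a list named after its values were seen. WT Tau lay farther from its PBS group than KO Tau did. In WT Tau against WT PBS, which shares libraries with the choosing comparison, the log2 fold change was 0.90 (SE 0.20), the smallest unadjusted p (0.000935) of all genes tested and an adjusted p of 1.00 by edgeR. KO Tau against KO PBS gave -0.40 (SE 0.21).

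Marker genes moved with these comparisons too. Between KO Tau and WT Tau all 14 choroid plexus markers were higher in KO Tau, with a median log2 fold change of 1.65, as were all 6 nuclear-retained RNAs, with 0.36. All 5 CA3 and all 8 dentate granule markers were lower there, with medians of -0.53 and -0.45. None of these CA3 and dentate markers had an unadjusted p under 0.05, against 4.71% of all genes. The dentate markers summed to 487, 173 and 230 CPM in KO Tau libraries 711, 712 and 713, against 342 to 410 in WT Tau. The nuclear-retained RNAs summed to 6091, 2582 and 3421 CPM in KO Tau libraries 711, 712 and 713. In WT Tau they summed to 3062 to 3447 CPM, so only library 711 stood above that range. Between WT Tau and WT PBS all 9 oligodendrocyte markers and all 14 choroid plexus markers were higher in WT Tau, with medians of 0.44 and 1.63. The choroid plexus markers summed to 132, 606 and 57.9 CPM in WT Tau libraries 771, 772 and 773, against 50.6 to 77.5 in WT PBS. Gm7120 was also highest in library 772. Without library 713 the Gm7120 log2 fold change between KO Tau and WT Tau was -1.29, and without library 711 it was -1.17. The part of these markers in the Gm7120 differences was otherwise not tested.

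In male KO PBS against WT PBS, whose log2 fold change used none of the libraries that chose it, Gm7120 showed no detectable difference. The SE and p of that comparison rest on a spread shared by all 12 male libraries. The log2 fold change was -0.00 (SE 0.20, 95% interval -0.45 to 0.44, adjusted p 0.999), and the KO PBS libraries lay on either side of the WT ones. Female mice did not show the male order. WT Tau libraries 331 and 341 had 13.9 and 16.8 CPM, and KO Tau libraries 314, 324 and 325 had 14.9, 12.4 and 28.3 CPM. Only library 325 reached the range of the male WT Tau libraries. The female log2 fold change was 0.30 (SE 0.29, 95% interval -0.34 to 0.95, adjusted p 0.997). The female minus the male log2 fold change was 1.60 (SE 0.40) with an adjusted p of 0.978, and again includes the libraries of the choice. Sex and library number series cannot be told apart here either. Without library 325 the female value was -0.08.

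Gm7120 sits near the end of chromosome 13, with 10 tested genes among its nearest on one side and 5 up to the last on the other. Of these 15, 3 had an unadjusted p under 0.05 between KO Tau and WT Tau, all lower, which is 20.0% against 4.71% of all genes tested. Ccl28, a chemokine gene whose start site lies 136 kb away, was the farthest from 0. It had 3.22, 2.61 and 2.59 CPM in KO Tau libraries 711, 712 and 713 and 6.32, 5.53 and 5.71 CPM in WT Tau libraries 771, 772 and 773, without overlap. Its log2 fold change was -1.04 (SE 0.25, unadjusted p 0.00149, adjusted p 0.927). 4833420G17Rik, whose start site lies 25.3 kb away, stood at -0.21 (SE 0.09), and 3110070M22Rik, which starts 0.344 kb away and shares bases with Gm7120, at -0.33 (SE 0.51). In WT Tau against WT PBS, where Gm7120 stood at 0.90, Ccl28 stood at 0.45 (SE 0.24) and 0 of the 15 neighbours had an unadjusted p under 0.05, against 1.86% of all genes.

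**Figure D3:**
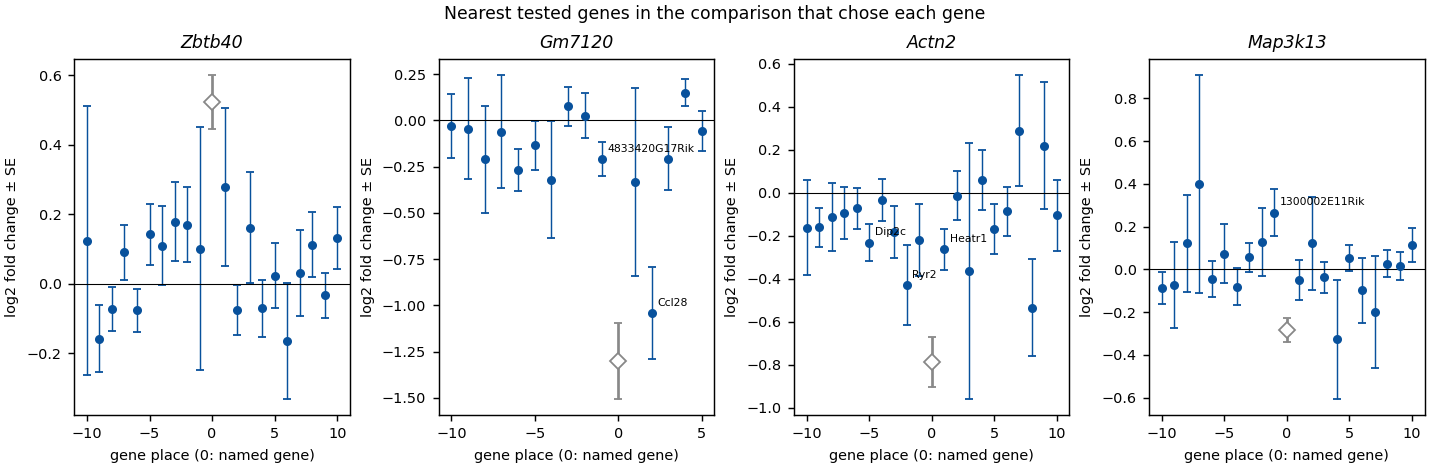
Log2 fold change with SE (y axis, own scale in each panel) of the nearest tested genes by their place along the chromosome (x axis, up to 10 on each side) in the comparison that chose each gene. Open grey diamonds are the 4 genes, and labelled neighbours, at most 5 places away, have an unadjusted p under 0.05. Ccl28 at -1.04 is the neighbour closest in size to Gm7120 at -1.30.

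Actn2 was lowest among the male groups in KO Tau mice and highest in KO PBS mice. KO Tau libraries 711, 712 and 713 had 9.65, 8.44 and 8.66 CPM, and KO PBS libraries 751, 752 and 753 had 15.5, 15.2 and 14.0 CPM. The groups averaged 8.92 ± 0.64 and 14.9 ± 0.79 CPM without overlap, as did 9.01% of the genes tested. Both WT groups lay between them, with 11.2, 11.7 and 12.1 CPM in WT PBS libraries 791, 792 and 793 and 11.51, 12.5 and 14.0 CPM in WT Tau libraries 771, 772 and 773. The highest WT Tau library only just reached the lowest KO PBS library.

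The log2 fold change that chose Actn2 was -0.79 (SE 0.11), a KO Tau level 0.579 times that of KO PBS, with an unadjusted p of 2.23e-05 and an adjusted p of 0.336. Hspa12a, an atypical member of the Hsp70 family, came next at -0.55 (SE 0.09) with an unadjusted p of 4.66e-05. By edgeR 0 genes were called here (0% of those tested) and 1201, or 7.95%, had an unadjusted p under 0.05, while limma voom also called 0 and the DESeq2 Wald test called 37 or 0.302%, Actn2 among them (adjusted p 7.98e-05). Its adjusted p in limma voom was 0.182. The other contrasts that share these libraries stood at 0.41 (SE 0.11) for KO PBS against WT PBS and -0.49 (SE 0.11) for KO Tau against WT Tau. Their difference, the genotype by treatment interaction, was -0.89 (SE 0.16) and had the smallest unadjusted p (0.000155) of all genes tested, with an adjusted p of 0.996.

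The striatal markers moved with this comparison, all 12 being lower in KO Tau, with a median log2 fold change of -0.93. Among the KO PBS libraries these markers were high in library 752 at 837 CPM, against 225 and 215 in libraries 751 and 753, and Actn2 stood at 15.2, 15.5 and 14.0 CPM in the same libraries. CA3 markers were also lower in KO Tau, all 5 of them with a median of -0.71. All 14 choroid plexus markers and all 6 nuclear-retained RNAs were higher in KO Tau, with medians of 2.56 and 0.65. The nuclear-retained RNAs summed to 6091, 2582 and 3421 CPM in KO Tau libraries 711, 712 and 713. In KO PBS they summed to 2133 to 2805 CPM. The Actn2 log2 fold change was -0.78 without library 752, -0.85 without library 711 and -0.76 without library 713. Markers of skeletal muscle, where Actn2 is abundant, summed to 5.54 to 16.8 CPM over the 17 libraries. The part of the striatal, CA3, choroid plexus, nuclear-retained and muscle markers in the Actn2 difference was otherwise not tested.

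Comparisons whose log2 fold changes did not use the libraries of the choice, or are independent of it, showed no Actn2 difference past the test. Their spread was shared with libraries of the choice. WT Tau against WT PBS gave 0.11 (SE 0.11, 95% interval -0.14 to 0.35, adjusted p 1.00). Averaged over treatment, KO against WT gave -0.04 (SE 0.08, adjusted p 0.972), the KO groups lying on both sides of the WT groups. In females, WT Tau libraries 331 and 341 had 6.08 and 12.5 CPM and KO Tau libraries 314, 324 and 325 had 9.94, 7.11 and 7.03 CPM. WT Tau library 331 lay below and library 341 above every KO Tau library. The log2 fold change was -0.17 (SE 0.28, 95% interval -0.80 to 0.45, adjusted p 0.997). With a library left out it ran from -0.61 to 0.48, so these libraries do not settle its direction. Library 331 is the one with 12029 CPM of oligodendrocyte markers, against 6052 in library 341.

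Among the alpha-actinins, Actn2 was a minor transcript in this tissue. Per length, Actn4 and Actn1, the non-muscle forms, averaged 20.1 and 14.2 RPKM, Actn2 2.90, and Actn3, the form of fast muscle fibres, 0.509. In KO Tau against KO PBS Actn1 was lower by a smaller amount, at -0.28 (SE 0.10, unadjusted p 0.0188), with 77.9, 79.2 and 89.8 CPM against 98.6, 102 and 88.9 CPM in libraries listed in the same order as above. Actn4 and Actn3 stood at -0.05 and -0.06. Of 24 listed binding partners of alpha-actinins 19 were tested and none passed an adjusted p of 0.05. Among them 4 had an unadjusted p under 0.05, which is 21.1% against 7.95% of all genes, all lower, and the median of the 19 was -0.24, against 0.00 for all genes.

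These 4 partners were channel and receptor genes of the synapse and dendrite. The NMDA receptor subunit genes Grin1, Grin2a and Grin2b stood at -0.31 (SE 0.10), -0.98 (SE 0.38) and -0.46 (SE 0.18), and the calcium channel gene Cacna1c at -0.45 (SE 0.19). Grin1 had 286, 323 and 375 CPM in KO Tau libraries 711, 712 and 713 and 383, 388 and 408 CPM in KO PBS libraries 751, 752 and 753, without overlap. Grin2a had 36.5, 11.46 and 21.1 CPM against 59.0, 32.0 and 40.1 CPM, so its groups did overlap. Those of Grin2b and Cacna1c overlapped too, with KO Tau reaching 76.8 and 79.6 CPM and KO PBS starting at 74.1 and 73.0 CPM. In WT Tau against WT PBS 0 of the 19 partners had an unadjusted p under 0.05, against 1.86% of all genes. Against WT PBS, 16 of the 19 partners were higher in KO PBS, by a small median of 0.07 against 0.01 for all genes. In KO Tau against WT PBS 7 of the 19 were higher, with a median of -0.10 against -0.003. Among the 20 genes nearest to Actn2, 4 had an unadjusted p under 0.05, all lower, 20.0% against 7.95%. They were Heatr1, Dip2c, Lyst and Ryr2, the last the gene of an intracellular calcium release channel, and their log2 fold changes lay between -0.54 and -0.23.

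Map3k13 was lower after Tau than after PBS in both male genotypes. In WT PBS libraries 791, 792 and 793 it had 29.8, 27.2 and 27.0 CPM and in WT Tau libraries 771, 772 and 773 it had 25.2, 23.9 and 25.2 CPM. In KO PBS libraries 751, 752 and 753 it had 27.1, 24.97 and 26.1 CPM and in KO Tau libraries 711, 712 and 713 it had 20.9, 20.1 and 21.1 CPM. Within each genotype the Tau and PBS libraries did not overlap, as held for 12.2% of the genes tested in WT and 9.01% in KO. Across genotypes they did, since KO PBS library 752 lay below 2 of the WT Tau libraries, and 0.305% of genes had no overlap there. The 6 Tau libraries averaged 22.7 ± 2.31 CPM and the 6 PBS libraries 27.0 ± 1.59 CPM.

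The log2 fold change that chose Map3k13 was -0.29 (SE 0.06), a level 0.821 times that after PBS. It was the smallest of the 4 choosing differences, and its unadjusted p of 0.000319 was the weakest. Its adjusted p was 0.888, and Hspa12a followed at -0.30 (SE 0.06) with an unadjusted p of 0.00044. By edgeR 0 genes were called here (0% of those tested), 812 or 5.38% had an unadjusted p under 0.05, limma voom called 0, and the DESeq2 Wald test called 1 or 0.005%, which was Hspa12a and not Map3k13 (adjusted p 0.246). By genotype the values were -0.19 (SE 0.08) in WT and -0.38 (SE 0.08) in KO. All 14 choroid plexus markers were higher after Tau, with a median log2 fold change of 2.27. Without library 713, which held most of that signal, Map3k13 stood at -0.29. All 12 striatal and all 5 CA3 markers were lower after Tau, with medians of -0.55 and -0.25. The striatal markers summed to 837 CPM in KO PBS library 752, against 209 to 269 CPM in the other male libraries. All 6 thalamic markers, all 6 nuclear-retained RNAs and all 9 microglia markers were higher, with medians of 0.26, 0.26 and 0.14. With any 1 male library left out, Map3k13 ran from -0.30 to -0.26. The part of these markers in the Map3k13 difference was otherwise not tested.

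The comparisons whose log2 fold changes are independent of that choice did not pass the test. Their spread was again shared with libraries of the choice. The genotype by treatment interaction was -0.19 (SE 0.11, 95% interval -0.44 to 0.06, adjusted p 0.996). KO against WT, averaged over treatment, was -0.14 (SE 0.06, 95% interval -0.27 to -0.02), with an unadjusted p of 0.027 and an adjusted p of 0.945, where 4.58% of genes had an unadjusted p under 0.05. In females WT Tau libraries 331 and 341 had 15.9 and 20.3 CPM, and KO Tau libraries 314, 324 and 325 had 18.7, 22.6 and 19.4 CPM. The groups overlapped, with a log2 fold change of 0.21 (SE 0.15, 95% interval -0.11 to 0.53, adjusted p 0.997). The female Tau libraries were thus as low as the male KO Tau ones or lower, except library 324, and no female PBS libraries existed to set beside them.

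Map3k12, the gene of DLK, was the more abundant kinase of the pair, with 12.4 RPKM on average against 2.67 for Map3k13. Its log2 fold change after Tau was -0.12 (SE 0.07, unadjusted p 0.111). None of the 15 other tested genes with a Map3k symbol had an unadjusted p under 0.05 there, and their median was -0.07, against -0.01 for all genes. Of 23 other genes of the DLK and LZK pathway, none passed an adjusted p of 0.05 and 3 had an unadjusted p under 0.05, all lower, which is 13.04% against 5.38% of all genes. Mapk8ip2 and Mapk8ip3, which encode scaffolds of JNK signalling, stood at -0.15 (SE 0.06) and -0.17 (SE 0.07), and Usp9x, a deubiquitinase gene, at -0.18 (SE 0.07). The median of the 23 was -0.08.

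Next to Map3k13, 1 of the 20 nearest tested genes had an unadjusted p under 0.05, 5.00% against 5.38% of all genes. It was 1300002E11Rik, the noncoding gene that shares exonic bases with Map3k13 and starts 0.028 kb from it. Its level was higher after Tau, at 0.27 (SE 0.11), opposite in direction to Map3k13, with 6.70 ± 0.83 CPM in the 6 Tau libraries and 5.46 ± 0.45 CPM in the 6 PBS libraries. Its counts, at most 157 in a library, were a fraction of those of Map3k13.

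**Figure D4:**
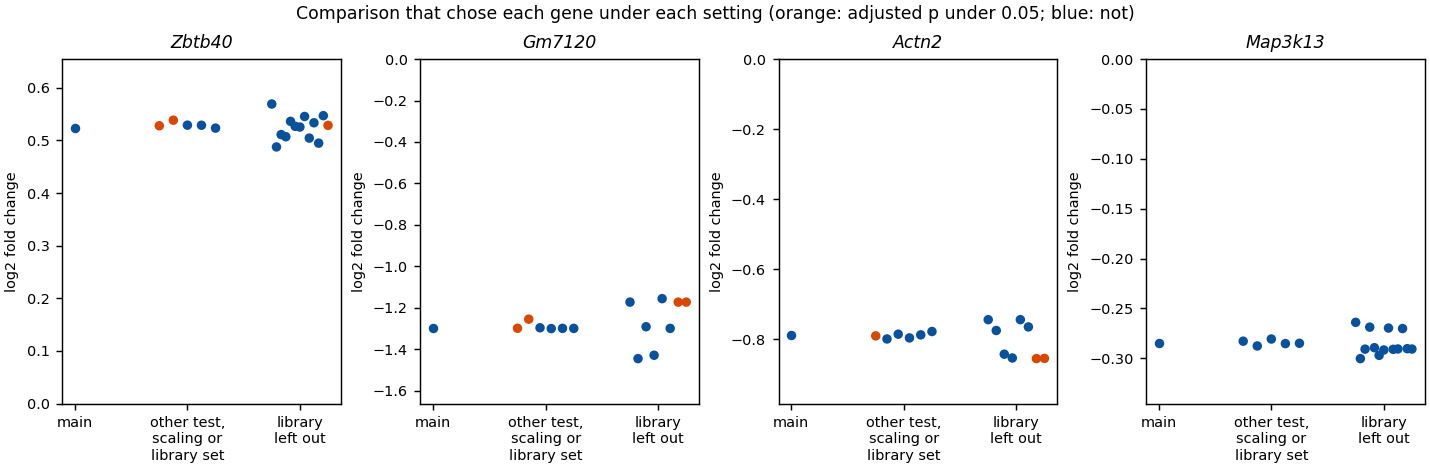
Log2 fold change (y axis, own scale in each panel, ending at 0) of each gene in the comparison that chose it, by setting (x axis): as reported, with another test, scaling, filter or library set, and with 1 library left out, DESeq2 without library 711 included. Orange points have an adjusted p under 0.05. No value changed sign, Zbtb40 staying between 0.49 and 0.57 and Map3k13 between -0.30 and -0.26, and Map3k13 has no orange point.

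The choosing differences kept their direction with any library left out, but not their ranks. With each of the 12 male libraries left out in turn, Zbtb40 ran from 0.49 to 0.57 and stayed in the leading place in 4 of 12 fits, with ranks from 1 to 4. Map3k13 ran from -0.30 to -0.26 and led in 2 of 12, with ranks from 1 to 10. With each of the 6 libraries compared left out, Gm7120 ran from -1.45 to -1.16 and led in 4 of 6, with ranks from 1 to 7. Actn2 ran from -0.85 to -0.74 and led in 2 of 6, with ranks from 1 to 18, the lowest being without library 752. No such edgeR fit gave any of the 4 an adjusted p under 0.05. The lowest were 0.0611 for Zbtb40 without library 751 and 0.0849 for Actn2 without library 752.

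The order of the 6 group means differed between the genes. Zbtb40 ran from KO PBS (17.96 ± 2.33 CPM) over KO Tau (16.6 ± 0.80), the females (15.01 ± 3.67 in KO Tau and 14.98 ± 5.01 in WT Tau) and WT PBS (12.97 ± 0.32) to WT Tau (11.7 ± 0.77). Only the last step, between WT PBS and WT Tau, exceeded the larger SD of the neighbours. Gm7120 ran from male WT Tau to male KO Tau, with the other groups between 15.4 and 18.6 CPM and not separated beyond their spread. For Actn2 only the step from KO PBS to WT Tau, and for Map3k13 each of the steps from WT PBS over KO PBS and WT Tau to KO Tau, exceeded the larger SD. The female groups were at the bottom for Map3k13, at 20.2 ± 2.06 CPM in KO Tau and 18.1 ± 3.14 CPM in WT Tau.

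**Figure D5:**
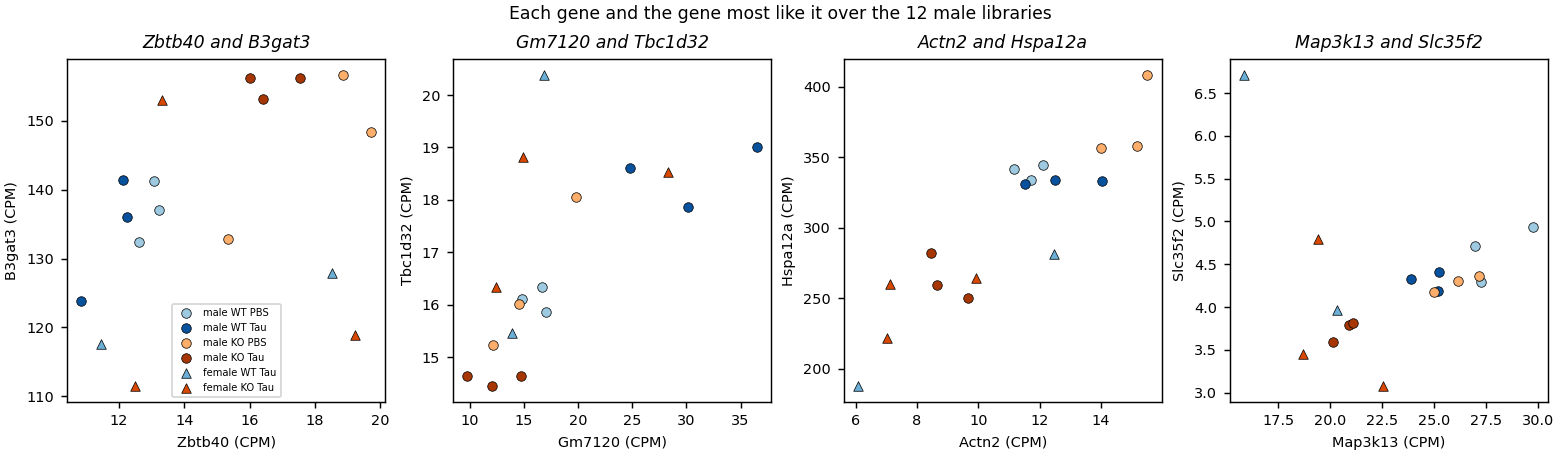
Level of each of the 4 genes (x axis, CPM) against the gene whose log2 level was most like it over the 12 male libraries (y axis, CPM), with circles for male and triangles for female libraries. Over male libraries r ran from 0.86 for Gm7120 and Tbc1d32 to 0.95 for Map3k13 and Slc35f2. The female triangles of Zbtb40 and of Map3k13 lie away from the male pattern.

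Likeness to other genes was measured as Pearson's r of log2 CPM over the 12 male libraries, which share their groups, so that r mostly follows the differences between groups. The closest genes to Zbtb40 were B3gat3 (r = 0.88), a glycosaminoglycan linker enzyme gene, the myosin gene Myo18a (0.88), the chromatin remodeller gene Smarcc2 (0.88) and the histone deacetylase gene Hdac4 (0.87). Gm7120 was closest to Tbc1d32 (0.86), Nifk (0.84), Psmb2 (0.82) and Suco (0.80). Actn2 was closest to Hspa12a (0.90), Asb1 (0.90), Ankrd29 (0.89) and Med14 (0.89). Map3k13 was closest to Slc35f2 (0.95), the stress-induced gene Sesn2 (0.92), Kcns3 (0.90) and Zc3h12b (0.89). Between the 4 genes themselves, Actn2 and Map3k13 had r = 0.73, and Zbtb40 and Gm7120 had r = -0.75. Over the 5 female libraries, which took no part in this choice, these 2 values were 0.47 and 0.36. With the same genes in the same order, Zbtb40 had female r = -0.15, -0.85, -0.29 and -0.38, and Gm7120 had 0.31, 0.11, 0.22 and 0.18. Actn2 had 0.84, 0.53, 0.51 and 0.76, and Map3k13 had -0.97, 0.92, -0.26 and 0.91.

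Hspa12a stood next to Actn2 and to Map3k13 in rank as well as in likeness to Actn2. It had 250, 282 and 259 CPM in KO Tau libraries 711, 712 and 713, against 409, 358 and 357 CPM in KO PBS libraries 751, 752 and 753. In WT PBS libraries it ran from 334 to 344 CPM and in WT Tau libraries from 331 to 334 CPM. Like Actn2, it was lowest among the male groups in KO Tau, where none of its libraries reached those of another male group.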

How the data were processed

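Reads had been aligned by the authors to GRCm38 (mm10) using RNA-STAR 2.5.2 and counted over exons with HTSeq 0.9.1 in reverse-stranded mode, and the values they deposited are raw counts per gene symbol. The annotation release is not given in the sources used here. Their test was the DESeq2 Wald test on male libraries. Their figure legend gives fewer KO Tau samples than the male KO Tau libraries held here, and does not name what was left out.

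Here counts were tested with the quasi-likelihood test of edgeR 4.0.16 in R 4.3.3 (TMM factors, filterByExpr with minimum count 10 and total 15, Benjamini-Hochberg adjustment, threshold 0.05). Male contrasts came from 1 fit of 12 libraries, and contrasts with females from 1 fit of 11 Tau libraries. SE is the log2 fold change over the root of F. Alternatives were DESeq2 1.42.0, limma voom 3.58.1 with sample weights, RLE factors, no filter, other library sets and each library left out. Fits were tested on simulated counts. Named genes were the 4 genes, the next in rank, the 4 most alike (prior count 2), relatives, and up to 4 genes per list with unadjusted p under 0.05. Genes, lists and tests were chosen with earlier results of these data known. Gm7120 was matched to Tmem267 through RefSeq synonyms. No pair of the 136 pairs of libraries was identical. The values of 1 neighbouring gene are not reported here.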

Additional observations from a re-analysis of the deposited data

How the results depend on the processing

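Every comparison that chose a gene kept its direction under all alternatives run. Calls depended on the tool. The number of genes called between male KO and WT was 1 by edgeR, 10 by DESeq2, 2 by limma voom and 42 by DESeq2 without male KO Tau library 711, an alternative added after seeing the data. For KO Tau against WT Tau it was 1 by edgeR, 4 by DESeq2, 2 by limma voom, 22 by DESeq2 without library 711 and 1378 by DESeq2 on only those groups without it. For KO Tau against KO PBS it was 0, then 37 by DESeq2, 78 without library 711 and 14 on only those groups without it. For Tau against PBS it was 0, then 1 by DESeq2 and 8 without library 711, which also gave 3 for the interaction. DESeq2 called 2 genes, Acss2 and Pclo, in KO PBS against WT PBS. In females edgeR called 1 gene, Acss2, and 0 on only the groups compared, and 0 to 1 with a library left out (0 without 324 or 331). The cause of these shifts was not tested.

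Zbtb40 passed the threshold by DESeq2, limma voom and DESeq2 without library 711, and its adjusted p was 0.990 with all 17 libraries. Gm7120 passed by DESeq2, limma voom and both fits without 711, Actn2 by DESeq2 and both fits without 711, and Map3k13 by none. Values near 0 changed sign. The Zbtb40 interaction was -0.00060 by DESeq2 and -0.011 without a filter, and -0.086 to 0.077 with a library left out. Gm7120 in KO PBS against WT PBS was 0.0032 by DESeq2, 0.0025 with RLE factors, 0.0095 without a filter and 0.0023 on only those groups, and -0.24 to 0.14 with a library left out. With a library left out, female values ran from -0.23 to 0.40 for Zbtb40, from -0.078 to 0.52 for Gm7120 and from -0.61 to 0.48 for Actn2, whose KO against WT average ran from -0.075 to 0.0064. RLE factors moved the median of all genes by at most 0.010. No paired analysis was possible because library numbers were not shared between groups. Female WT Tau, with 2 libraries, gives the least precise values, and where a library left out leaves 1 in that group it is assumed to vary like the others.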
